A study of Trichoderma harzianum with 18 samples.

Results

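The comparison described here is that of the Δ*xyr1-2* mutant with the wild type of the filamentous fungus *Trichoderma harzianum* in shake-flask cultures without a carbon source. It comprised 6 of the 18 RNA-seq libraries of the series, 3 replicate cultures of each strain, chosen by their labels and not by any measured value. The wild type was strain CBS 226.95, and the mutant was derived from it by replacing the *xyr1* coding sequence (*Triha1_1126*) with a hygromycin resistance cassette. One deletion strain was sequenced, so an effect of *xyr1* loss and of anything else particular to that transformant cannot be told apart. Both strains were grown for 36 h at 28 °C and 200 RPM in minimal medium with 1% D-fructose and 0.1% peptone, and the washed mycelium was moved for 18 h to minimal medium with no carbon source added. The other 12 libraries, from parallel cultures of the same strains on 1% cellulose and on 25 mM D-fructose, are used only to place the no carbon values. A separate plate of spores started each set of replicate pre-cultures, so the p-values below measure the spread between replicate cultures.

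XYR1 is a zinc binuclear cluster transcription factor, related to XlnR of *Aspergillus*, and is known in *T. reesei* as the main activator of cellulase and xylanase genes. Such enzymes cut cellulose and xylan outside the cell, and the released sugars are taken up by transporters of the major facilitator superfamily and enter metabolism through routes such as the pentose catabolic pathway. In several *Trichoderma* species these genes are strongly expressed only in the presence of an inducer, and low basal expression without one is thought to provide the first soluble sugars from a polymer. A comparison of the strains without carbon addresses this basal, XYR1-dependent expression.

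Each library had between 16208381 and 21263103 reads on genes, and the TMM normalization factors were between 0.976 and 1.01. Pearson's r of log2 CPM across genes was 0.981 to 0.991 between replicates of a strain and 0.978 to 0.990 between the strains. The mutant replicate 1 had the lowest values of r in both sets.

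The deleted gene was checked first. The primer pair that the study used to look for the *xyr1* coding sequence in the transformants is shown because both sites should be absent from the mutant, as printed in its primer list in the 5′ to 3′ direction.
jc150-Th-xyr1-coding-f: aactacgctacacaagcccc
jc151-Th-xyr1-coding-r: gcacaatggtctcacatgcc
The gene spans bases 3812710 to 3815646 of its scaffold in assembly Triha v1.0, whose scaffold names are not given in the table used here. In the wild type, *xyr1* had 3676, 2765 and 3669 reads in replicates 1, 2 and 3. In the mutant it had 4, 4 and 1 reads. The 9 reads of the mutant amounted to 0.0981% of the wild-type level, with an exact 95% interval from 0.0448% to 0.186% that covers counting error only. The expression level in the wild type was 64.8, 59.6 and 61.4 FPKM (fragments per kilobase of transcript, scaled to library size), so *xyr1* was transcribed in the absence of any carbon source. In wild-type libraries on D-fructose it was 25.7, 35.5 and 40.0 FPKM, below all 3 no carbon libraries, and on cellulose it was 72.6, 145 and 273 FPKM, above all 3.

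Few genes responded to the deletion without carbon, and each of those that passed the test was lower in the mutant. Genes were tested with edgeR (quasi-likelihood F-test, Benjamini-Hochberg adjustment over 11387 genes), and a call required more than a 2-fold change, an adjusted p below 0.05 and a mean above 1 FPKM in either strain. It called 15 genes lower in the mutant, which is 0.132% of the genes tested, and 0 genes higher. DESeq2 called 24 genes, 22 lower and 2 higher, or 0.173% of the genes to which it gave an adjusted p, and these included all 15. At an unadjusted p under 0.05 there were 368 genes lower and 370 higher by edgeR. The 15 genes were *xyr1*, 1 sugar transporter, 4 xylan-active CAZymes (carbohydrate-active enzymes) and 9 others. Gene functions and lists were taken from a part of the study's annotation, which did not cover 8 of these 9 genes, so their functions were not looked up and some may belong to the groups described below. A further 2 genes had an adjusted p under 0.05 but a fold change under 2 (*Triha1_84143* at a log2 fold change of -0.70 and *Triha1_103277* at -0.59, named after their values were seen).

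**Figure D1:**
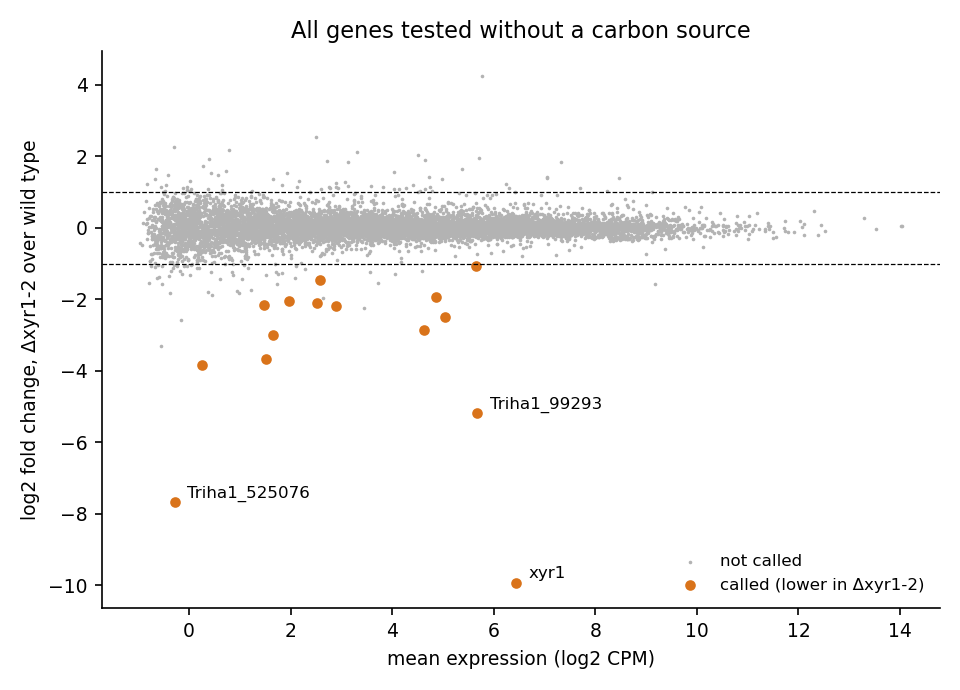
Log2 fold change without carbon, Δ*xyr1-2* mutant over wild type (vertical axis), against mean expression in log2 CPM (horizontal axis), with 1 point for each of the 11387 genes tested and dashed lines at a 2-fold change. The 15 called genes, in orange, all lie below the lower line, with *xyr1* at -9.93. The uncalled point near 4 on the vertical axis is Triha1_86327, whose fitted value of 4.25 came with high reads in mutant replicate 1 alone. The fitted value of Triha1_525076 rests on a mutant group with 0 reads.

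For most genes the data also set a limit on the size of any difference. The median absolute log2 fold change over the genes tested was 0.112, and the 99th percentile was 1.08. The 95% interval of the fold change lay inside a 2-fold change in either direction for 9681 genes, 85.0% of those tested. The other 3263 of the 14650 genes in the table had too few reads to be tested, and 808 genes had no read in any of the 6 libraries.

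The largest response with high read numbers, apart from *xyr1*, was that of the sugar transporter *Triha1_99293*, annotated with the sugar transporter domain PF00083 (bases 99885 to 101950 of its scaffold). It had 66.0, 48.7 and 61.0 FPKM in the wild type and 1.85, 1.67 and 1.23 FPKM in the mutant. The lowest wild-type library was far above the highest mutant library. The log2 fold change was -5.19 ± 0.19 (SE), a 36.6-fold lower level, with an edgeR adjusted p of 1.1e-05. In the wild type its mean level without carbon was 7.37% of that on cellulose, where its libraries had 700, 680 and 1003 FPKM, and 5.8 times that on D-fructose.

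Of 90 listed transporter genes 75 were tested, and *Triha1_99293* was the 1 called lower, with 0 called higher, where 0.132% of all genes tested were called. At an unadjusted p under 0.05 there were 8 transporters lower and 5 higher, beside 368 and 370 of all 11387 genes. Their median log2 fold change was -0.03, against 0.006 over all genes tested, and the summed FPKM of the list was 5807 ± 455 for wild-type and 5914 ± 238 for mutant libraries (mean ± SD, n = 3 each). DESeq2 alone called a further 2 transporters lower. One was *Triha1_111997*, with 15.0, 11.4 and 7.97 FPKM in the wild type and 3.76, 4.14 and 3.82 FPKM in the mutant. Its groups did not overlap, and its adjusted p was 8.7e-08 with DESeq2 and 0.068 with edgeR. The other was *Triha1_500193*, with 2.38, 2.72 and 2.44 FPKM against 1.03, 1.14 and 0.80 FPKM. The adjusted p of its difference was 0.0062 with DESeq2 and 0.13 with edgeR. The 3 listed transporters with the highest wild-type levels without carbon (singled out after their values were seen) were *Triha1_93294*, *Triha1_93498* and *Triha1_4923*. Their wild-type means were 1582, 977 and 840 FPKM, their log2 fold changes were 0.13, -0.005 and -0.23, and none was called.

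The 4 called genes among the listed CAZymes were all xylan-active. Of 26 listed genes for plant biomass-degrading (PBD) CAZymes with xylan as substrate, 13 were tested, 4 were called lower and 0 higher, and their median log2 fold change was -0.41, where 0.132% of all genes tested were called and their median was 0.006. Of these genes 12 had a mean below 1 FPKM in both strains. The 4 called genes passed the filter on low counts largely through their wild-type reads, so this share applies to the tested genes alone.

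A pair of the 4 were endo-β-1,4-xylanases of family GH11, which cut the xylan main chain. The GH11 gene *Triha1_115099* had 50, 35 and 29 reads in the wild type (2.25, 1.92 and 1.24 FPKM) and 1, 4 and 2 reads in the mutant (0.06, 0.18 and 0.11 FPKM). All wild-type libraries were above all mutant libraries, at a level near 1 FPKM in the wild type. The log2 fold change was -3.83 ± 0.47 (SE), with an edgeR adjusted p of 0.031.
The other GH11 gene, *Triha1_525076*, had 31, 26 and 23 reads in the wild type and 0, 0 and 0 reads in the mutant. With 3 reads over the mutant group as the floor that a count of 0 allows, its level was at least 24.2-fold lower in the mutant. This bound covers counting error in the mutant reads only and not the spread between cultures. The edgeR adjusted p of the strain difference was 0.044. Both genes were at low levels, and how reads shared by closely similar genes were counted is not given in the sources used here.
The remaining endo-xylanase gene that could be tested, *Triha1_118868* (named after its value was seen), had a log2 fold change of -0.11 (95% interval -1.06 to 0.84) and was not called, and the GH10 gene *Triha1_91773* had 18 reads in the 3 wild-type libraries together and was not tested.

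The other 2 act on the side chains of xylan. The GH67 gene *Triha1_509810*, a xylan α-1,2-glucuronidase that releases glucuronic acid residues, had 3.95, 2.72 and 3.45 FPKM in the wild type and 0.80, 0.87 and 0.67 FPKM in the mutant. Every wild-type library was over 3 times as high as every mutant library. The log2 fold change was -2.10 ± 0.21 (SE), with an edgeR adjusted p of 0.010.
*Triha1_102504*, listed as an esterase with the domains CBM1 and CE1, had 4.59, 3.69 and 4.23 FPKM in the wild type and 0.77, 1.28 and 0.69 FPKM in the mutant. Its groups did not overlap either, and the log2 fold change was -2.16 ± 0.27 (SE) with an edgeR adjusted p of 0.031. The annotation of this gene also carries the Pfam domain PF03664, which is that of GH62 arabinofuranosidases, so its activity is uncertain. The second listed xylan glucuronidase, *Triha1_21376*, had too few reads to be tested. Among the other esterases, *Triha1_105085* (CE16) had a log2 fold change of -0.58 and an unadjusted edgeR p of 0.037 and was not called.

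Of 19 listed genes for enzymes acting on cellulose 11 were tested and 0 were called, a number too small to set against the 0.132% called among all genes tested. Of the 11, 1 was lower and 0 were higher at an unadjusted edgeR p under 0.05, DESeq2 also called 0, and the median log2 fold change was 0.09. The cellobiohydrolase gene *CEL6* (*Triha1_508689*), whose enzyme releases cellobiose from chain ends, had 1.25, 1.03 and 3.83 FPKM in the wild type and 0.82, 0.87 and 0.58 FPKM in the mutant. The other cellobiohydrolase gene, *CEL7A* (*Triha1_7497*), had 0.69, 0.64 and 5.20 FPKM in the wild type and 0.41, 1.04 and 0.47 FPKM in the mutant. In both genes the wild-type replicate 3 was well above the other wild-type libraries. For *CEL6* the strains still did not overlap, while for *CEL7A* the other wild-type libraries lay within the range of the mutant. The log2 fold changes were -1.43 (95% interval -2.64 to -0.22) for *CEL6* and -1.75 (-3.68 to 0.19) for *CEL7A*, with edgeR adjusted p-values of 0.75 and 0.76. The CE5 gene *Triha1_118643*, listed under xylan as a cutinase or acetylxylan esterase, also had its highest level in that library. It had 0.40, 0.12 and 2.60 FPKM in the wild type and 0, 0.10 and 0.06 FPKM in the mutant, and was not tested. The endoglucanase genes *CEL7B* (*Triha1_512303*) and *EG III* (*Triha1_91916*) had 5 and 1 reads in the 3 wild-type libraries together. Their basal expression, if any, was therefore not measurable at this depth.

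Other enzymes of cellulose degradation were expressed without carbon in both strains. The endoglucanase genes *Triha1_362575* (GH12) and *Triha1_6750* (GH5_5) had wild-type means of 109 and 61.3 FPKM, with log2 fold changes of 0.19 (95% interval -0.04 to 0.43) and 0.20 (-0.04 to 0.45). The β-glucosidase genes of family GH3 *Triha1_504610* and *Triha1_96503*, whose enzymes split cellobiose to glucose, had log2 fold changes of -0.03 (-0.27 to 0.21) and -0.09 (-0.29 to 0.10). All 4 intervals lay within a 2-fold change. The lytic polysaccharide monooxygenase gene *Triha1_99387* (AA9, CBM1), whose enzyme cleaves cellulose oxidatively, had a log2 fold change of -0.66 (-1.34 to 0.02) and was not called.

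Most of the summed FPKM of the 58 listed PBD CAZymes came from genes that act on pectin and starch. The GH28 pectin hydrolase gene *Triha1_88799* had 1606, 1540 and 1562 FPKM in the wild type and 1369, 1519 and 1579 FPKM in the mutant, and was the most highly expressed of them. The ranges of the strains overlapped, with a log2 fold change of -0.07 (95% interval -0.25 to 0.12). The glucoamylase gene *Triha1_81392* (GH15, CBM20), for starch, had 361, 382 and 353 FPKM against 460, 395 and 408 FPKM. Its log2 fold change was 0.22 ± 0.09 (SE), with an unadjusted edgeR p of 0.045 and an adjusted p of 0.75. Summed over the 58 listed genes, wild-type libraries had 2467 ± 25.5 FPKM and mutant libraries 2482 ± 38.9 FPKM (mean ± SD, n = 3 each), with a ratio of 1.01. The 4 called xylan-active genes were a small part of that sum in the wild type, and their fall is not visible in it. The listed genes are only part of the PBD CAZymes that the paper counts. They include no group of β-glucosidases, β-xylosidases or α-arabinofuranosidases, so the sum and its make-up apply to the listed genes alone.

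**Figure D2:**
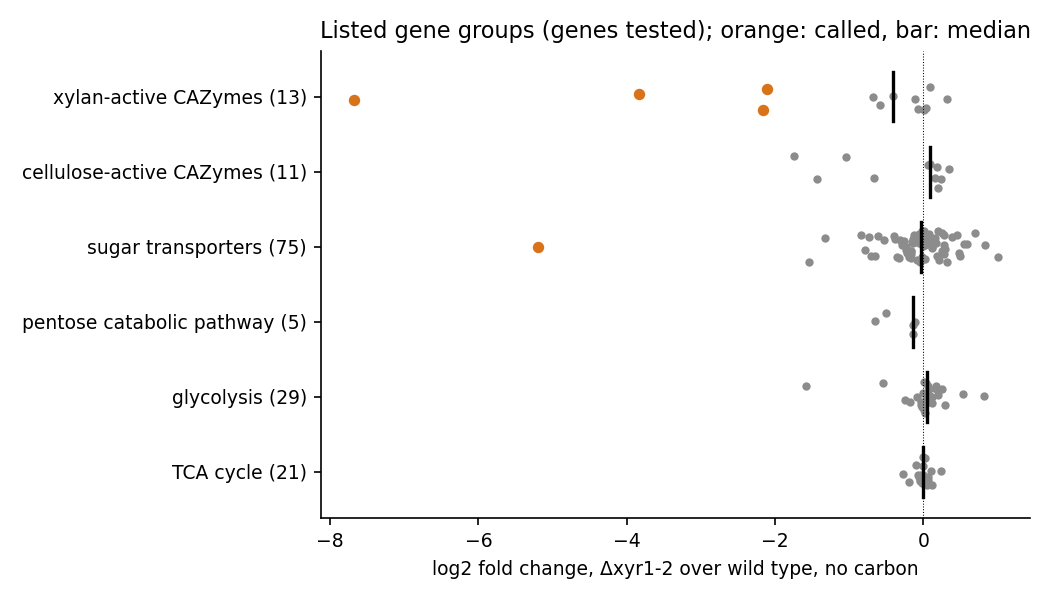
Log2 fold change without carbon, Δ*xyr1-2* mutant over wild type (horizontal axis), for the tested genes of 6 listed groups (rows, with the number tested), with called genes in orange and the median as a bar. The 4 called xylan-active genes and the called sugar transporter, at -5.19, lie apart from the other members, and the medians of glycolysis and the tricarboxylic acid (TCA) cycle are near 0.

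Genes of central carbon metabolism were at similar levels in both strains. Of 93 listed carbon catabolic genes 91 were tested, 0 were called by edgeR or by DESeq2, 3 were lower and 2 higher at an unadjusted p under 0.05, and the median log2 fold change was 0.02. The 95% interval lay inside a 2-fold change for 84 of the 91. In the TCA cycle this held for all 21 genes, whose log2 fold changes were between -0.28 and 0.24. In glycolysis it held for 24 of 29 genes. Of the others there, the *adhA* ortholog *Triha1_77454*, for an alcohol dehydrogenase, had 346, 283 and 1829 FPKM in the wild type and 237, 231 and 343 FPKM in the mutant. Wild-type replicate 3 was far above the other libraries, and the log2 fold change was -1.59 ± 0.65 (SE). The *pdcA* ortholog *Triha1_126634*, for pyruvate decarboxylase, had 18.6, 21.0 and 21.3 FPKM against 56.8, 20.5 and 29.1 FPKM. Its highest library was mutant replicate 1, and the log2 fold change was 0.82 ± 0.33 (SE), with an edgeR adjusted p of 0.75 for both genes. The carbon catabolite repressor gene *cre1* (*Triha1_502975*), which the study also names, had means of 147 FPKM in the wild type and 193 FPKM in the mutant, with a log2 fold change of 0.42 (95% interval -0.37 to 1.2), and was not called.

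In the pentose catabolic pathway, which takes L-arabinose and D-xylose to D-xylulose 5-phosphate, all 5 genes had a negative log2 fold change and 0 were called by either tool. The gene nearest to a call was *xki1* (*Triha1_499653*), for xylulokinase, the last step. It had 14.9, 12.7 and 14.5 FPKM in the wild type and 8.70, 8.68 and 9.34 FPKM in the mutant. The strains did not overlap, and the log2 fold change was -0.65 ± 0.11 (SE), short of a 2-fold change, with an adjusted p of 0.14 with edgeR and 0.0021 with DESeq2. The xylitol dehydrogenase gene *xdh1* (*Triha1_508280*) had 103, 100 and 82.5 FPKM against 43.0, 63.6 and 93.6 FPKM. Its groups overlapped through mutant replicate 3, and the log2 fold change was -0.51 (95% interval -1.05 to 0.04). For the reductase and dehydrogenase genes *xyl1*, *lad1* and *lxr3* the log2 fold changes were -0.13, -0.11 and -0.14, and for *lxr4*, listed under another pathway, -0.12. The share of all tested genes whose libraries did not overlap, lower in the mutant, was 6.46%, and it was 6.03% for genes higher in the mutant.

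The 9 other called genes, of which only *Triha1_501007* was covered by the annotation used here, included some of the lowest adjusted p-values. *Triha1_90109* had 33.5, 46.1 and 39.7 FPKM in the wild type and 5.49, 7.61 and 7.66 FPKM in the mutant. The log2 fold change was -2.51 ± 0.16 (SE), a 5.69-fold lower level, with an edgeR adjusted p of 0.00078. *Triha1_84185*, the gene with the smallest called change, had 61.1, 56.4 and 53.6 FPKM against 26.6, 27.1 and 27.7 FPKM. Replicates of this gene were close together in each strain, with SDs of 3.78 and 0.516 FPKM, and the log2 fold change was -1.06 ± 0.08 (SE) with an edgeR adjusted p of 0.0032.

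*Triha1_99736* had 18.7, 11.8 and 19.8 FPKM in the wild type against 3.44, 1.77 and 1.69 FPKM in the mutant. *Triha1_501007*, annotated with a bulb-type lectin domain, a pectin lyase fold and carbohydrate binding, had 28.1, 23.8 and 39.3 FPKM against 10.2, 6.57 and 6.71 FPKM. The groups did not overlap for either gene, with log2 fold changes of -2.86 and -1.95 and edgeR adjusted p-values of 0.017 and 0.031.

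The remaining genes were at wild-type means under 10 FPKM. They were *Triha1_512864* (7.32 FPKM in the wild type and 1.6 in the mutant), *Triha1_512866* (3.09 and 0.733), *Triha1_493566* (3.39 and 0.264), *Triha1_103604* (4.22 and 1.52) and *Triha1_127900* (3.13 and 0.380). Their log2 fold changes were between -1.47 and -3.68. In all 15 called genes the TMM-scaled CPM of each mutant library was below that of each wild-type library, as in 6.46% of all genes tested. The calls came from these same libraries and favour such an order, so it adds no further support.

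**Figure D3:**
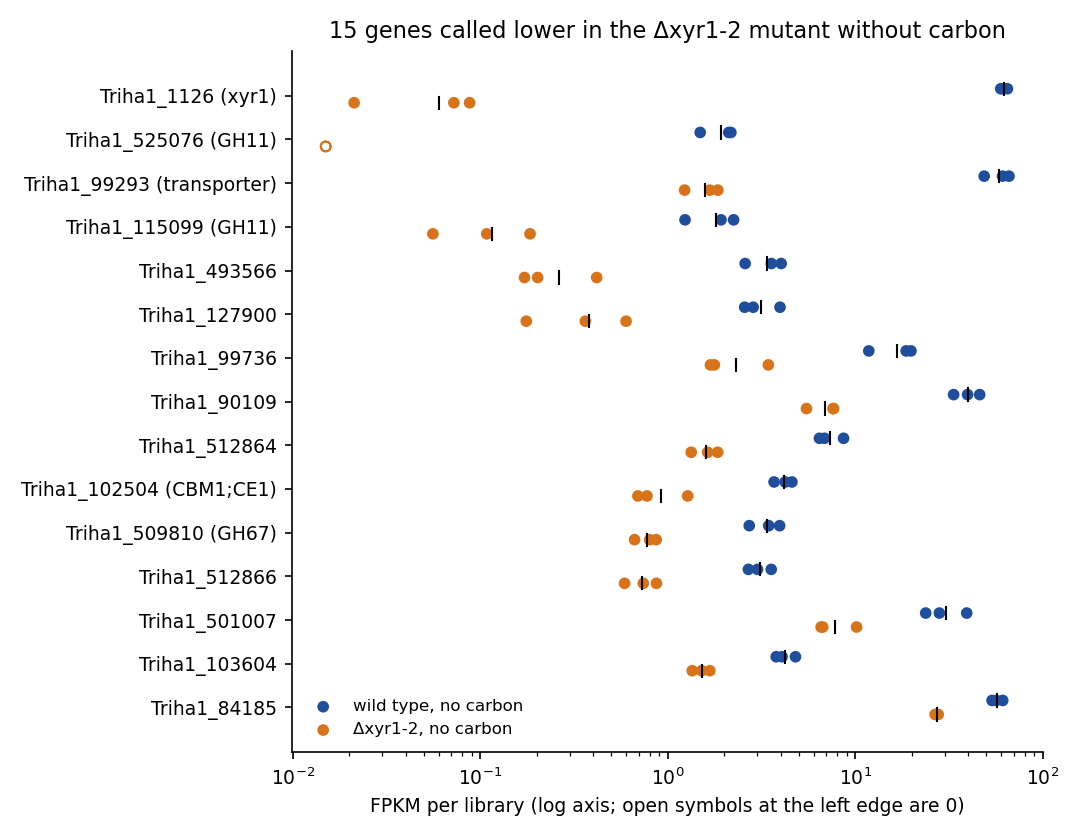
FPKM in each library (horizontal axis, logarithmic) of the 15 genes called lower in the Δ*xyr1-2* mutant without carbon (rows, ordered by log2 fold change), with wild-type libraries in blue, mutant libraries in orange and group means as vertical bars. The 3 mutant libraries lie to the left of the 3 wild-type libraries in every row, and for Triha1_525076 they are at 0. The genes were called from these same libraries.

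Leaving out single libraries affected how many of the 15 genes were called. Their direction could hardly change in these fits, since no mutant library of a called gene reached a wild-type library. All 15 genes had a negative log2 fold change in each of the 6 fits without 1 library, and 3 of them (*xyr1*, *Triha1_99293* and *Triha1_90109*) were called in all 6. *Triha1_512864* was called in 5 of these fits, *Triha1_84185* in 4 and *Triha1_493566* in 2, the last with edgeR adjusted p-values of 0.0037 to 0.086. *Triha1_115099*, *Triha1_102504* and *Triha1_127900* were called in 0 of them, and *Triha1_525076* in 1. The GH67 gene *Triha1_509810* was called in 2. Over all 15 alternative settings, these fits included, *xyr1* and *Triha1_99293* were called in 15, *Triha1_90109* in 14 and *Triha1_493566* in 10. The xylan-active genes were called less often, *Triha1_509810* in 8, *Triha1_525076* in 6, and *Triha1_115099* and *Triha1_102504* in 5 each. For the GH11 genes, the GH67 gene and *Triha1_102504* the edgeR adjusted p-values were 0.015 to 0.27 over the 6 fits without 1 library. Over all 15 alternative settings their adjusted p-values spread more widely, and for each of the genes some were far above 0.05. None of these xylan-active genes was called in the fit of all 18 libraries. That fit kept 3 calls, *xyr1*, *Triha1_99293* and *Triha1_493566*, and did not call *Triha1_90109*. The number of calls was 12 without mutant replicate 1, 3 without mutant replicate 2, 5 without mutant replicate 3, and 4, 8 and 6 without wild-type replicates 1, 2 and 3.

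On the higher side no gene passed the test. The 5 genes higher in the mutant with the lowest unadjusted p were *Triha1_504126*, *Triha1_508110*, *Triha1_127004*, *Triha1_71974* and *Triha1_77290*. *Triha1_504126* had 8.74, 10.8 and 12.1 FPKM in the wild type and 25.2, 21.9 and 19.3 FPKM in the mutant. Its groups did not overlap, and the log2 fold change was 1.08 ± 0.16 (SE), with an adjusted p of 0.068 with edgeR and 1.9e-06 with DESeq2. The other 4 had log2 fold changes between 0.41 and 0.70 and edgeR adjusted p-values between 0.17 and 0.27. *Triha1_127004* is a listed transporter, with 4.73, 5.53 and 5.24 FPKM against 8.11, 9.18 and 7.73 FPKM. The transcript Novel00224, which has no annotated identifier, was the second gene that DESeq2 called higher, with 36.6, 38.2 and 21.1 FPKM against 75.8, 58.8 and 68.6 FPKM and an adjusted p of 0.34 with edgeR and 0.00047 with DESeq2.

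Large positive fold changes came mostly with mutant replicate 1. Of 71 genes with a fitted log2 fold change over 1, 0 were called, and mutant replicate 1 was the highest mutant library in 62 and over 2 times the other mutant libraries in 45. Without that library 40 of the genes tested had a log2 fold change over 1. *Triha1_86327*, singled out after its values were seen because its fitted rise was the largest, had 16.9, 26.9 and 17.6 FPKM in the wild type and 1074, 25.6 and 29.0 FPKM in the mutant. Its log2 fold change was 4.25 ± 1.41 (SE) with all libraries and 0.42 ± 0.23 (SE) without mutant replicate 1, with an edgeR adjusted p of 0.75 and 0.72. On D-fructose its mean was 29366 FPKM in the wild type. The part of that library in these values was not tested further.

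DESeq2 called 9 genes that edgeR did not. Besides the transporters *Triha1_111997* and *Triha1_500193* and the 2 higher genes, these were *Triha1_72349*, *Triha1_138482*, *Triha1_501720*, *Triha1_496599* and *Triha1_4707*, all lower in the mutant. *Triha1_72349* had 15.9, 10.9 and 12.5 FPKM in the wild type against 5.14, 5.05 and 6.51 FPKM, a log2 fold change of -1.22 with an edgeR adjusted p of 0.073. *Triha1_501720* had 15.2, 15.3 and 12.9 FPKM against 7.16, 6.51 and 4.27 FPKM, a log2 fold change of -1.26 with an edgeR adjusted p of 0.23. The groups did not overlap for either gene.

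Some called genes lay near each other in the RefSeq order of genes, an observation made after their values were seen. Scaffold names were not available, so a shared scaffold was inferred from gene order and positions. *Triha1_90109* and the GH67 gene *Triha1_509810* were separated by 3 genes and 6089 bases. Of the genes between them, *Triha1_496856* had a log2 fold change of -0.99 ± 0.17 (SE) and was not called, and *Triha1_509808* and *Triha1_509809* had -0.20 and -0.44. *Triha1_509809* overlaps the GH67 gene by 2 bases. *Triha1_512864* and *Triha1_512866* were separated by 2 genes and 4919 bases. The gene next to *Triha1_512864* on its other side was the transporter *Triha1_500193*, called by DESeq2, while *Triha1_500195*, between the called genes, had a log2 fold change of 0.57. *Triha1_99736* and *Triha1_501007* were directly next to each other, 1515 bases apart, and *Triha1_127900* lay 9 genes and 18847 bases from *Triha1_99736*. The genes in that interval that could be tested had log2 fold changes from -1.07 (*Triha1_501001*) to 0.46 (*Triha1_155286*), and none was called. The 2 annotated genes on each side of *xyr1* were not called without carbon. *Triha1_205751* had a log2 fold change of -0.31 ± 0.13 (SE), *Triha1_73544* had 0.03, *Triha1_1128* had 0.16, and *Triha1_105416* was not tested. On cellulose the first 2 of these were lower in the mutant, at -3.75 and -3.93.

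The same 15 genes were then followed in the other conditions. The strain difference on cellulose had an edgeR call, lower in the mutant, for 13 of them, where 20.7% of all 11479 tested genes were called lower. On cellulose the scaling matters, since 2470 genes were called higher and 2379 lower with TMM factors but 4208 and 1270 with library size only, a setting that moved the median of all genes to 0.68 on the log2 scale. The 2 without a call were *Triha1_90109* and *Triha1_512864*, with log2 fold changes of -1.20 (95% interval -3.36 to 0.96) and -1.17 (-2.78 to 0.44). On D-fructose 13 of the 15 could be tested, all had a negative log2 fold change and only *xyr1* was called, which was also the only edgeR call among all 10908 genes there (0.00917%). That count depended strongly on the test, since DESeq2 called 108 genes on D-fructose and an edgeR fit of all 18 libraries called 113. Examples without a call there were *Triha1_99293* at -3.44 ± 0.69 (SE), *Triha1_493566* at -3.59 ± 0.47 (SE) and *Triha1_90109* at -2.68 ± 0.50 (SE). The 3 comparisons used different libraries, from cultures that shared pre-cultures within a replicate set.

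**Figure D4:**
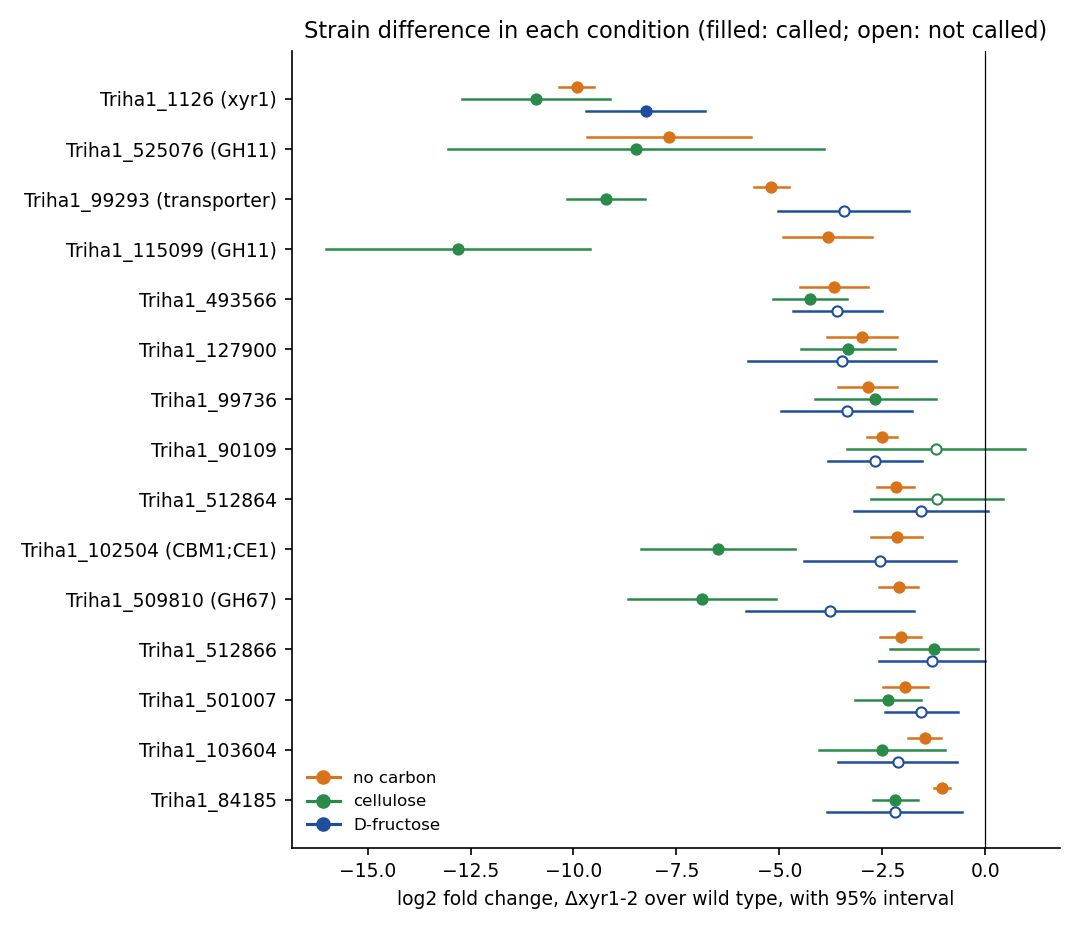
Log2 fold change of the Δ*xyr1-2* mutant over the wild type (horizontal axis) with its 95% interval for the 15 genes (rows) without carbon (orange), on cellulose (green) and on D-fructose (blue), where filled points were called. All points lie left of 0, and the sugar transporter, the GH67 gene, the GH11 gene Triha1_115099 and Triha1_102504 lie farther left on cellulose than without carbon. The GH11 genes could not be tested on D-fructose.

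Whether the deletion acted differently with and without cellulose was tested as an interaction on the 12 libraries of both conditions. Of 11873 genes 39.9% were called, 2335 with a negative and 2403 with a positive difference of log2 fold changes. With TMM factors, the fall was larger on cellulose than without carbon for 5 of the 15 genes. With so many calls among all genes, this count does not set the 15 genes apart. The difference of the log2 fold changes was -9.0 ± 2.36 (SE) for the GH11 gene *Triha1_115099*, -4.79 ± 0.74 for the GH67 gene *Triha1_509810*, -4.34 ± 0.84 for *Triha1_102504*, -4.03 ± 0.34 for the transporter *Triha1_99293* and -1.13 ± 0.24 for *Triha1_84185*, with edgeR adjusted p-values of 5.5e-06 to 0.0084. For *xyr1* it was -1.0 ± 0.99 (SE) and for *Triha1_493566* -0.60 ± 0.55 (SE), and neither was called. For *Triha1_127900*, *Triha1_99736* and *Triha1_501007* it was -0.35, 0.17 and -0.44, with 95% intervals of -1.77 to 1.07, -1.43 to 1.76 and -1.40 to 0.52. For *Triha1_90109* and *Triha1_512864* it was 1.30 and 0.99, with intervals that reach from -0.86 to 3.46 and from -0.61 to 2.59.

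The wild-type levels by carbon source also set these genes apart from each other. The transporter and 3 of the xylan-active genes were far below their cellulose level when no carbon was given, with 7.37% of it for *Triha1_99293*, 0.231% of it for the GH11 gene *Triha1_115099*, 4.37% for the GH67 gene *Triha1_509810* and 3.82% for *Triha1_102504*. The other called xylan-active gene, *Triha1_525076*, had 2.12, 2.17 and 1.49 FPKM without carbon and 3.94, 1.43 and 50.1 FPKM on cellulose. Its higher mean on cellulose rested mostly on replicate 3. On cellulose *Triha1_115099* had 1096, 1132 and 108 FPKM, with the lowest level in replicate 3. *Triha1_509810* had 47.0, 33.9 and 151 FPKM there, with the highest in that library. *Triha1_90109*, by contrast, had 3.20, 2.51 and 29.6 FPKM on cellulose and 2.59, 4.42 and 8.11 FPKM on D-fructose, below all 3 no carbon libraries (33.5 to 46.1 FPKM). Wild-type cellulose replicate 3 was far above the other cellulose libraries for this gene. *Triha1_512864* had 0.97, 0.78 and 4.33 FPKM on cellulose, also below its no carbon libraries of 6.44 to 8.66 FPKM. In all, 7 of the 15 genes were higher in each wild-type cellulose library than in each no carbon library, and 3 (*Triha1_90109*, *Triha1_512864* and *Triha1_512866*) were lower in each. In 9 of the 15 genes every wild-type no carbon library was above every wild-type D-fructose library. The shares over all genes were not computed for these counts, so they are not read as particular to the 15 genes. The calls also used the wild-type no carbon reads, and this favours genes that are high in those libraries.

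**Figure D5:**
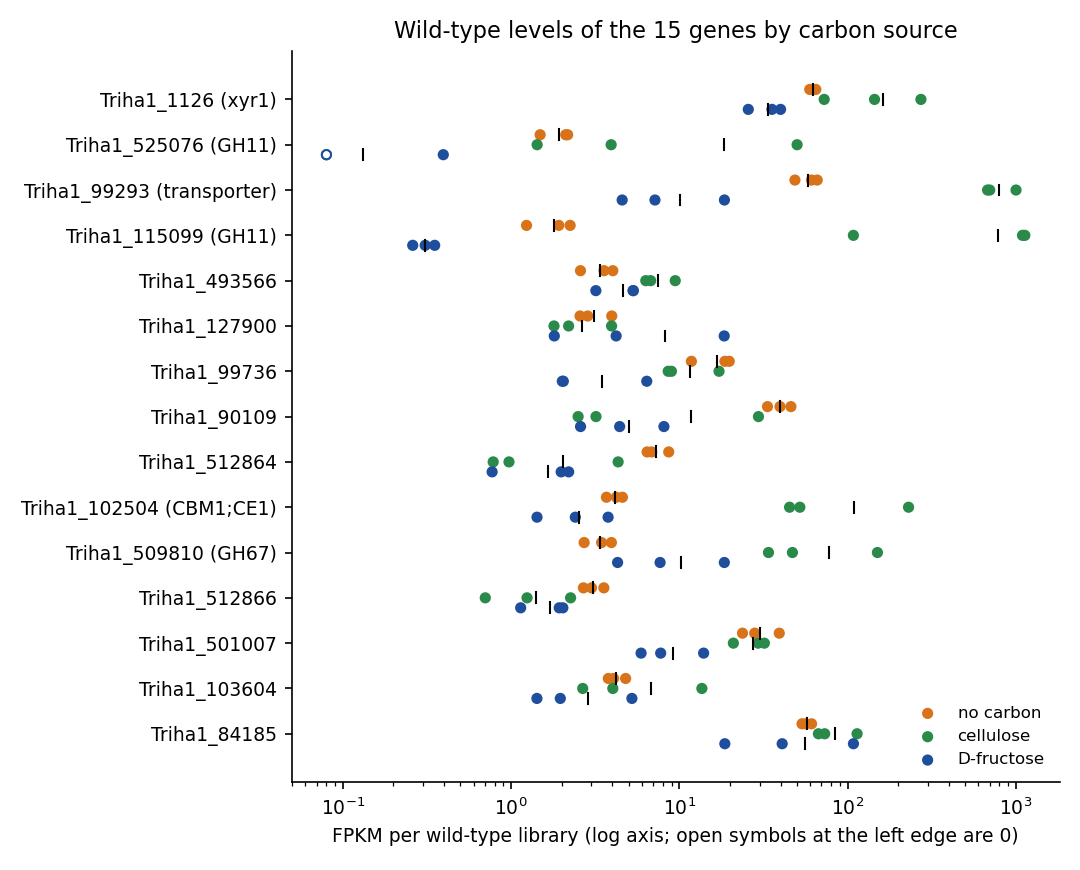
FPKM in each wild-type library (horizontal axis, logarithmic) of the 15 genes (rows) without carbon (orange), on cellulose (green) and on D-fructose (blue), with group means as vertical bars. The transporter Triha1_99293 and the GH11 gene Triha1_115099 are much higher on cellulose than without carbon, and Triha1_90109 and Triha1_512864 are highest without carbon.

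Some genes with a large strain difference on cellulose had no call without carbon. For *xyl1* (*Triha1_83947*), for xylose reductase, the no carbon libraries had 120, 103 and 107 FPKM in the wild type and 103, 98.3 and 96.9 FPKM in the mutant. Its wild-type cellulose libraries had 1093, 1222 and 764 FPKM, and the interaction was -3.68 ± 0.28 (SE) with an edgeR adjusted p of 2.6e-06. For the cellobiohydrolase genes *CEL6* and *CEL7A* the interaction was -9.93 ± 1.34 and -9.55 ± 1.91 (SE). Their mean wild-type levels without carbon were 0.0506% and 0.0413% of those on cellulose. The wild-type cellulose libraries had 2317, 1661 and 8105 FPKM for *CEL6* and 2002, 1602 and 12216 FPKM for *CEL7A*. Replicate 3 was by far the highest in both conditions, so these percentages rest largely on it.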

How the data were processed

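The authors cleaned the paired-end reads, mapped them with STAR 2.5.2b to the *T. harzianum* CBS 226.95 genome (assembly Triha v1.0), kept reads with at most 1 mismatch and counted reads per gene with HTSeq 0.5.4, and deposited these raw counts. FPKM of the same libraries were also deposited, as the authors derived them. A setting for strand was not given in the sources used here. All 14290 annotated names were found in the RefSeq table, which gave positions and gene order without scaffold names, and 360 transcripts had a name of the authors only. Groups were taken from the sample labels.

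Strain differences were tested on the counts with edgeR 4.0.16 (R 4.3.3, quasi-likelihood F-test, TMM factors, filterByExpr defaults, Benjamini-Hochberg adjustment) on the 6 libraries compared, and the interaction on 12. Standard errors and 95% intervals were derived from the F statistic. The call thresholds on adjusted p, fold change and FPKM follow the study. Alternatives were DESeq2 1.42.0, also with shrunken fold changes, RLE size factors, library size only, no filter, all 18 libraries, an adjusted p under 0.01, no FPKM criterion, the replicate number as a block and leaving out each library. The scripts were tested on simulated data. Figures and sums used Python 3.11.15.

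The genes named are *xyr1* and 2 genes on each side, the genes called by edgeR or DESeq2, genes that the study names with an identifier, the pentose catabolic genes, the 2 lowest p-values of each list (those that add to the account), and the 5 lowest p-values among genes higher in the mutant. The comparison, the lists and the rule were chosen with earlier results of these data known. Lists come from the part of the study's annotation table used here, with 58 PBD CAZymes, fewer than the paper counts. Lists based on product descriptions and a search of promoters were planned but not run, since these were not used here.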

Additional observations from a re-analysis of the deposited data

Results flagged for a closer look

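The strain difference on cellulose minus that without carbon was tested on 12 libraries, and the following genes were called by edgeR with TMM factors. With that scaling the strain difference was not the same in the 2 conditions. With library size only, the median difference over all genes was 0.71 on the log2 scale, against 0.003. The smaller of the differences below may therefore depend on the scaling. Values are differences of log2 fold changes. Among the genes called lower without carbon they were -9.0 for *Triha1_115099*, -4.79 for *Triha1_509810*, -4.34 for *Triha1_102504*, -4.03 for *Triha1_99293* and -1.13 for *Triha1_84185*.

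Among the genes that only DESeq2 called without carbon, they were 9.82 for *Triha1_501720*, 2.32 for *Triha1_500193*, 1.93 for Novel00224 and -5.10 for *Triha1_72349*. *Triha1_501720* had 0 reads in all 3 wild-type cellulose libraries, 6.99, 5.07 and 13.1 FPKM in the mutant on cellulose, and 15.2, 15.3 and 12.9 FPKM in the wild type without carbon. Its fitted strain difference had the opposite sign in the 2 conditions, without an edgeR call in the absence of carbon, and its fitted value depends on the prior count used for zeros. *Triha1_72349* was lower in the mutant in both conditions, at -6.31 on cellulose and -1.22 without carbon.

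Among the genes named by the study they were -11.47 for the GH10 xylanase gene *Triha1_91773*, -9.93 for *CEL6* (*Triha1_508689*) and -9.55 for *CEL7A* (*Triha1_7497*). Among the pentose catabolic genes and *lxr4* they were -3.68 for *xyl1* (*Triha1_83947*), -2.41 for *xki1* (*Triha1_499653*), -1.38 for *lxr4* (*Triha1_83091*), -1.22 for *lxr3* (*Triha1_479566*) and 1.42 for *lad1* (*Triha1_495252*). The gene *lad1*, for L-arabinitol dehydrogenase, was higher in the mutant on cellulose (1.32) and at -0.11 without carbon, where it was not called.

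For the neighbours of *xyr1* they were -3.44 for *Triha1_205751* and -3.98 for *Triha1_73544*, and among the uncalled genes with the lowest p on the higher side they were -1.87 for *Triha1_508110* and 2.30 for *Triha1_77290*. The cause of these differences was not tested.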

How the results depend on the processing

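Without carbon, the 15 calls were 24 with DESeq2, 3 with all 18 libraries in one fit, 5 at an adjusted p under 0.01 and 7 with the replicate block. They were between 3 and 12 when single libraries were left out. They were 15 with RLE size factors, with library size only and without the FPKM criterion, 18 with no filter (1 higher) and 10 with shrunken fold changes. Same-numbered libraries of the 2 strains had correlations of deviations of 0.065, -0.018 and 0.002, and differently numbered ones had -0.094 to 0.111. These values gave no sign that the numbers pair the strains. With 3 libraries per group they cannot exclude it. None of the genes called by edgeR or DESeq2 changed direction under these settings, while some uncalled genes near 0 did, such as *Triha1_73544* (-0.07 to 0.18) and *Triha1_504610* (-0.11 to 0.09). For the 15 edgeR calls the direction could hardly change, as their groups did not overlap. On D-fructose the 1 call became 108 with DESeq2, 99 with shrunken fold changes, 113 with all 18 libraries in one fit and 0 at an adjusted p under 0.01, with 0 to 1 when libraries were left out and 1 with the replicate block. On cellulose the calls were 4849, between 3939 and 5689 without single libraries, and 4324 with the replicate block. The interaction had 4738 calls, between 4335 and 5551, and 4473 with the replicate block within each strain. With library size only its split changed from 2403 higher and 2335 lower to 4214 and 1158, and the median log2 value over all genes from 0.003 to 0.71. Without wild-type cellulose replicate 3 the interaction of *Triha1_496599* and *Triha1_110887* turned from -0.01 and -0.03 to 1.74 and 1.74, and over the fits without single libraries they were as low as -0.45 and -0.48. The ratio of summed PBD CAZyme FPKM, 1.01, was 1.02 from TMM-scaled CPM and 0.998 to 1.01 without single libraries. The cause of these changes was not tested, beyond the fewer samples of some fits. Genes with few reads, such as the cellulases, limit what a lack of calls can show.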
